A study of Mus musculus with 4 samples.

Results

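The glycosaminoglycan synthesis and sulfation genes are 37 genes chosen by name, grouped by the branch of the pathway they serve, and all 37 are present among the 23284 genes counted in *Osr1*+ limb cells. *Osr1* encodes a zinc finger transcription factor of embryonic connective tissue, and RNA was sequenced from *Osr1*+ cells of E13.5 limbs, sorted for GFP, of 2 *Osr1* GCE/+ and 2 *Osr1* GCE/GCE C57BL/6J embryos. The GCE allele places eGFP-IRES-CreERt2 in the *Osr1* locus and inactivates the gene, so that every cell analysed carries at least 1 GCE allele, the GCE/+ cells keep 1 intact allele, and no cells without the knock-in were compared. GFP reports transcription of the locus, so the sorted population is defined by *Osr1* promoter activity in both genotypes. GCE/GCE cells carry 2 GFP copies and GCE/+ cells 1, so the sort need not take the same cells in both. The comparison is between cells sorted in this way from embryos with and without an intact *Osr1* allele. The labels call the cells mesenchymal, and the collagen genes *Col1a1*, *Col1a2* and *Col3a1* were the highest of 11 mesenchyme markers, with *Col3a1* at 9550 and 8788 CPM (counts scaled to the TMM-adjusted library total) in GCE/+ cells and at 7718 and 6846 CPM in GCE/GCE cells. The summed CPM of the 11 markers was 22633 and 20528 in GCE/+ cells, against 19785 and 17383 in GCE/GCE cells, so the groups did not overlap. *Col3a1* was the largest term of that sum. By gene, the groups of 7 of the 11 overlapped, those of *Col1a1* and *Col1a2* among them. In the other 4, with *Col3a1*, both GCE/GCE samples were lower, where 19.1% of all genes were so placed. In GCE/GCE cells 10 of the 11 had a log2 fold change below 0, none of which passed in edgeR (3 at an unadjusted p under 0.05) and 3 of which passed in DESeq2.

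Glycosaminoglycans are long sugar chains of the cell surface and the extracellular matrix. Chondroitin, dermatan and heparan sulfate are built in the Golgi on proteoglycan core proteins, from a shared linker of sugars, and are sulfated there with the donor PAPS, whereas hyaluronan is an unsulfated free chain made at the plasma membrane. Chondroitin sulfate gives cartilage matrix its charge and swelling pressure, and heparan sulfate binds signalling proteins such as FGFs, Wnts and BMPs.

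The libraries held 52121596 to 61402140 counts, so that 3 counts, the floor used here for counting error alone, correspond to 0.049 to 0.0574 CPM. *Osr1* itself was at 81.9 and 79.1 CPM in GCE/+ cells and at 11.9 and 13.9 CPM in GCE/GCE cells. This is a change of -2.64 ± 0.11 (SE) on the log2 scale, at an adjusted p of 5.94e-05 by the quasi-likelihood test of edgeR, adjusted by Benjamini-Hochberg. In GCE/GCE replicate 1, *Xist*, the RNA of the inactive X chromosome, was at 1142 CPM, against 0.572 to 2.63 CPM in the other 3 samples, and the members on the X chromosome are *Chst7* and *Hs6st2*. The summed CPM of 14 cartilage markers was higher in GCE/GCE cells (2097 and 2258) than in GCE/+ cells (988 and 1473), and that of 12 macrophage markers was lower (226 and 158 against 357 and 362). Fewer cells of a type and less RNA per cell cannot be told apart in RNA of a whole sorted population.

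One member rose in GCE/GCE cells past the threshold of an adjusted p under 0.1 in edgeR, *Papss2*, which makes the sulfate donor PAPS, at 1.49-fold. None fell. That is 1 of the 36 members that passed the filter on low counts, where 1.82% of all 15645 tested genes (285) passed in either direction and 0.895% passed as higher. By DESeq2, 4 members passed: *Papss2*, the chondroitin sulfotransferase gene *Chst11* and the 6-O-sulfatase gene *Sulf2* as higher, and the second 6-O-sulfatase gene *Sulf1* as lower, where 3.35% of 15026 genes passed, 1.71% as higher and 1.64% as lower. At an unadjusted p under 0.05 in edgeR there were 5 members, with *Hs6st1* added to those 4, against 10.5% of all genes.

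In the size of their changes the 36 tested members were close to all genes. Their median log2 fold change was 0.02 and that of all tested genes 0.00. The median size of the change, without its sign, was 0.12 on the log2 scale for members and 0.10 for all genes. The change was under 0.25 on the log2 scale in 27 of 36 members and in 77.0% of all genes. For 26 members (72.2%) the whole 95% interval of the change lay within 0.5 on either side of 0, which was so for 60.6% of all genes. The members were more highly expressed than the average tested gene, with a median of 40.0 CPM against 21.3 CPM. In 13 of the 36 members both GCE/GCE samples were above both GCE/+ samples, a larger share than the 19.2% of all genes so placed. In 5 of the 36 both were below, where 19.1% of all genes were. The difference in these shares was not tested.

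**Figure D1:**
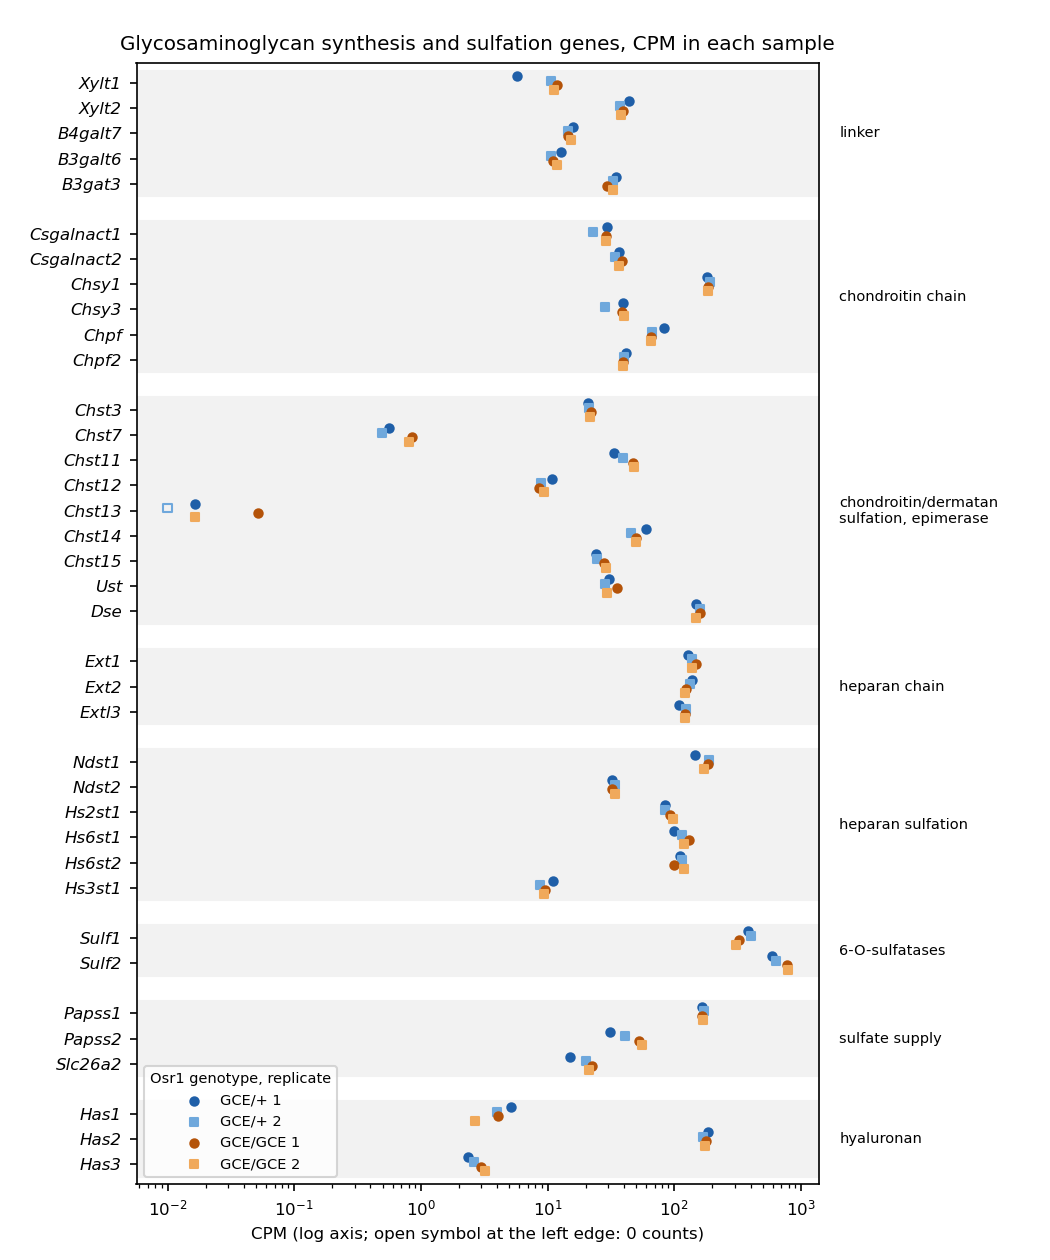
CPM (log axis) of each of the 37 members in each sample, grouped by branch, with GCE/+ samples in blue and GCE/GCE samples in orange. The 4 samples lie close together in most rows, *Sulf1* and *Sulf2* lie at the high end, and *Chst13* lies at or near 0 counts.

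Sulfate enters the cell through the transporter encoded by *Slc26a2* and is passed to the products of *Papss1* and *Papss2*, the synthases that activate sulfate to PAPS. *Papss2* was at 31.2 and 40.9 CPM in GCE/+ cells and at 52.3 and 55.2 CPM in GCE/GCE cells. Both GCE/GCE samples were above both GCE/+ samples, and the GCE/+ samples lay further apart than the GCE/GCE samples. The log2 fold change was 0.58 ± 0.13 (SE), with a 95% interval of 0.28 to 0.87 and an adjusted p of 0.0996 by the quasi-likelihood test of edgeR, just inside the threshold. DESeq2 gave an adjusted p of 0.00397. The call depended on GCE/+ replicate 1, the lower sample: without it the log2 fold change was 0.39 (edgeR adjusted p = 0.158), and without GCE/+ replicate 2 it was 0.79 (edgeR adjusted p = 0.00897). With RLE normalization, the kind that DESeq2 uses, edgeR gave an adjusted p of 0.103 for nearly the same size of change.

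*Papss1*, the paralog, was at 167 and 170.2 CPM in GCE/+ cells and at 164 and 168 CPM in GCE/GCE cells. These ranges overlapped, and the 95% interval of its log2 fold change ran from -0.20 to 0.16. Per kilobase of exon, *Papss1* was the higher gene in both genotypes, at 55.2 CPM per kb against 9.69 CPM per kb for *Papss2* in GCE/+ cells and at 54.4 against 14.5 CPM per kb in GCE/GCE cells. Taken within each sample, the ratio of *Papss2* to *Papss1* CPM was 0.187 and 0.241 in the GCE/+ samples against 0.318 and 0.329 in the GCE/GCE samples. The transporter gene *Slc26a2* was at 14.96 and 19.9 CPM in GCE/+ cells and at 22.6 and 21.3 CPM in GCE/GCE cells. Its groups did not overlap, but the change of 0.33 ± 0.15 (SE) on the log2 scale did not pass (edgeR adjusted p = 0.478). Without GCE/+ replicate 1 it was 0.13 (edgeR adjusted p = 0.951) and without GCE/+ replicate 2 it was 0.55 (edgeR adjusted p = 0.0586).

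The sequences before the starts of the synthase genes are shown because *Papss2* passed the test and *Papss1* did not, and those of *Chst11* and *Sulf2* because they passed in DESeq2. They are RefSeq sequences in build GRCm38.p6, the 250 bases before an annotated start, 5′ to 3′ on the gene's strand, with CpG dinucleotides in capitals. Where a gene has several windows, the one with the most GENCODE M21 transcript starts within 50 bases is printed. *Papss2* is printed at chr19:32619755-32620004 (plus strand), *Papss1* at chr3:131564518-131564767 (plus), *Chst11* at chr10:82985247-82985496 (plus) and *Sulf2* at chr2:166155684-166155933 (minus).
Papss2: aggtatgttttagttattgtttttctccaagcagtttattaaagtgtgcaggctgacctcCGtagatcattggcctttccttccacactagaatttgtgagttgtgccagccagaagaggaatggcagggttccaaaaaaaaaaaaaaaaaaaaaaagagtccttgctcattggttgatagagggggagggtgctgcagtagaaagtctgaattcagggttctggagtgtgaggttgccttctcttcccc
Papss1: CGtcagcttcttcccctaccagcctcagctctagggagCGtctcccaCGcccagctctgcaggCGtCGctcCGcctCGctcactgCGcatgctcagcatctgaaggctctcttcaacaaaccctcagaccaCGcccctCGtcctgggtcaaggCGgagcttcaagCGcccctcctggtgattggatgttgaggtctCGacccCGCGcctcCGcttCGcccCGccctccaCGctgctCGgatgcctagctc
Chst11: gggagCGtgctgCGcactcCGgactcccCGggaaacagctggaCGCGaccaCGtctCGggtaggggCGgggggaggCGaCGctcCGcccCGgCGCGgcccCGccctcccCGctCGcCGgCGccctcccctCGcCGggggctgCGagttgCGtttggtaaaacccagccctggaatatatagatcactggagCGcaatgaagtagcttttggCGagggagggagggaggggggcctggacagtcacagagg
Sulf2: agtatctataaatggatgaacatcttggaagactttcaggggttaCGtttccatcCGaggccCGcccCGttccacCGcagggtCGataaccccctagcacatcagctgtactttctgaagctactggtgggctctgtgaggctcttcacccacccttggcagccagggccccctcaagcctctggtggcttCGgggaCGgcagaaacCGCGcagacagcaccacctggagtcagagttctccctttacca

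The printed *Papss2* window holds 1 CpG, which is 0.09 of the number expected from its C and G content, while the *Papss1* window holds 20 (0.81), the *Chst11* window 26 (0.86) and the *Sulf2* window 10 (0.50). Among the 34 windows that the table gives for 27 of the 37 members, the printed *Papss2* window had the lowest ratio, and 4433 of all 32851 windows had a ratio as low or lower. 3 of these genes have a second window, which differs from the printed one. That of *Papss2* (chr19:32595465-32595714) holds 24 CpGs (0.88) and a GC box, GGGCGG, that of *Papss1* (chr3:131565782-131566031) holds 5 CpGs (0.35) and no GC box, and that of *Sulf2* (chr2:166155286-166155535) holds 21 CpGs (0.98) and no GC box. The contrast between *Papss2* and *Papss1* is therefore one of the printed windows and is the reverse in the second windows. These second windows of *Papss2* and *Papss1* have 0 GENCODE starts within 50 bases. The printed *Papss2* window lies inside the gene, which begins at 32595790, as the second *Papss1* window lies inside its gene, which begins at 131564768. Gene counts join the transcripts of all starts, so the start that they come from is unknown. A ratio above 0.6 was found in 58.8% of member windows and in 34% of all windows. The GC box, searched on both strands, was present in 58.8% of member windows and 32.7% of all windows, and in the printed windows of *Papss1*, *Chst11* and *Sulf2*. The core bound by SOX factors, searched as ACAANG on both strands, was present in 20.6% of member windows and 36.3% of all windows and in none of the 4 printed windows. These matches describe the letters of the windows only.

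Chondroitin sulfate carries its sulfate mainly on N-acetylgalactosamine, at position 4 or 6. *Chst11* encodes the main chondroitin 4-O-sulfotransferase of cartilage and lies on chromosome 10 (GRCm38 82985498 to 83195900, plus strand). It was at 33.2 and 39.4 CPM in GCE/+ cells and at 46.9 and 47.8 CPM in GCE/GCE cells. The groups did not overlap, and GCE/+ replicate 1 was again the lowest sample. The log2 fold change of 0.38 ± 0.10 (SE; 95% interval 0.14 to 0.62) did not pass in edgeR (adjusted p = 0.170) and passed in DESeq2 (adjusted p = 0.0868). Without GCE/+ replicate 1 the log2 fold change was 0.26 (edgeR adjusted p = 0.408) and without GCE/+ replicate 2 it was 0.51 (edgeR adjusted p = 0.0361).

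None of the other chondroitin and dermatan sulfation genes passed either test. *Chst12*, a second 4-O-sulfotransferase gene, was at 9.80 ± 1.40 CPM in GCE/+ cells and at 9.03 ± 0.59 CPM in GCE/GCE cells (mean ± SD, n = 2 each, as for all means here). *Chst13*, the remaining 4-O-sulfotransferase gene, had 0 to 0.0517 CPM, at or under the floor, and was not tested. The 6-O-sulfotransferase gene *Chst3* was at 21.2 ± 0.24 and 21.8 ± 0.49 CPM, and *Chst7*, which encodes an enzyme of the same kind, was below 1 CPM in every sample, at 0.558 and 0.497 CPM in GCE/+ cells and at 0.844 and 0.800 CPM in GCE/GCE cells (26 to 49 counts a library). Its groups did not overlap, and its log2 fold change of 0.63 ± 0.28 (SE), the largest of the tested members, did not pass (edgeR adjusted p = 0.493). *Chst15*, whose product adds a second sulfate at position 6 to 4-sulfated units, was at 24.3 and 24.7 CPM in GCE/+ cells and at 27.9 and 29.0 CPM in GCE/GCE cells, groups that did not overlap (log2 fold change 0.21 ± 0.10, SE; edgeR adjusted p = 0.487). *Ust*, the uronyl 2-O-sulfotransferase gene, had a log2 fold change of 0.14, with an interval from -0.12 to 0.41. *Chst14* and *Dse* serve dermatan sulfate, as its 4-O-sulfotransferase and its epimerase. *Dse*, the highest of these genes per kilobase (30.8 CPM per kb in both genotypes), was at 148 and 159 CPM in GCE/+ cells and at 158 and 148 CPM in GCE/GCE cells, and the ranges were nearly identical. *Chst14* changed by -0.08 on the log2 scale, with an interval from -0.36 to 0.21.

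Genes that polymerise the chondroitin chain gave no call. *Chsy1*, the chondroitin synthase gene with the highest level per kilobase of the branch (44.7 CPM per kb in GCE/+ cells), was at 181 and 193 CPM in GCE/+ cells and at 186 and 185 CPM in GCE/GCE cells. The GCE/GCE samples lay between the GCE/+ samples, and the interval of the log2 fold change ran from -0.19 to 0.17. The other synthase gene *Chsy3* (0.21), the chain initiating *Csgalnact1* (0.15) and *Csgalnact2* (0.09), and the polymerising partners *Chpf* (-0.20) and *Chpf2* (-0.03) had log2 fold changes on both sides of 0. *Chpf* was at 83.2 and 67.1 CPM in GCE/+ cells and at 65.7 and 65.4 CPM in GCE/GCE cells, so that GCE/+ replicate 1 stood apart from the other 3 samples. *Chpf* was called lower in the edgeR fit without GCE/+ replicate 2 (log2 fold change -0.34, adjusted p = 0.0722) and had a log2 fold change of -0.04 without GCE/+ replicate 1. Summed over the 15 genes of chondroitin chain making and sulfation, the level was 739 and 713 CPM in GCE/+ cells, against 747 and 732 CPM in GCE/GCE cells, and these ranges overlapped.

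**Figure D2:**
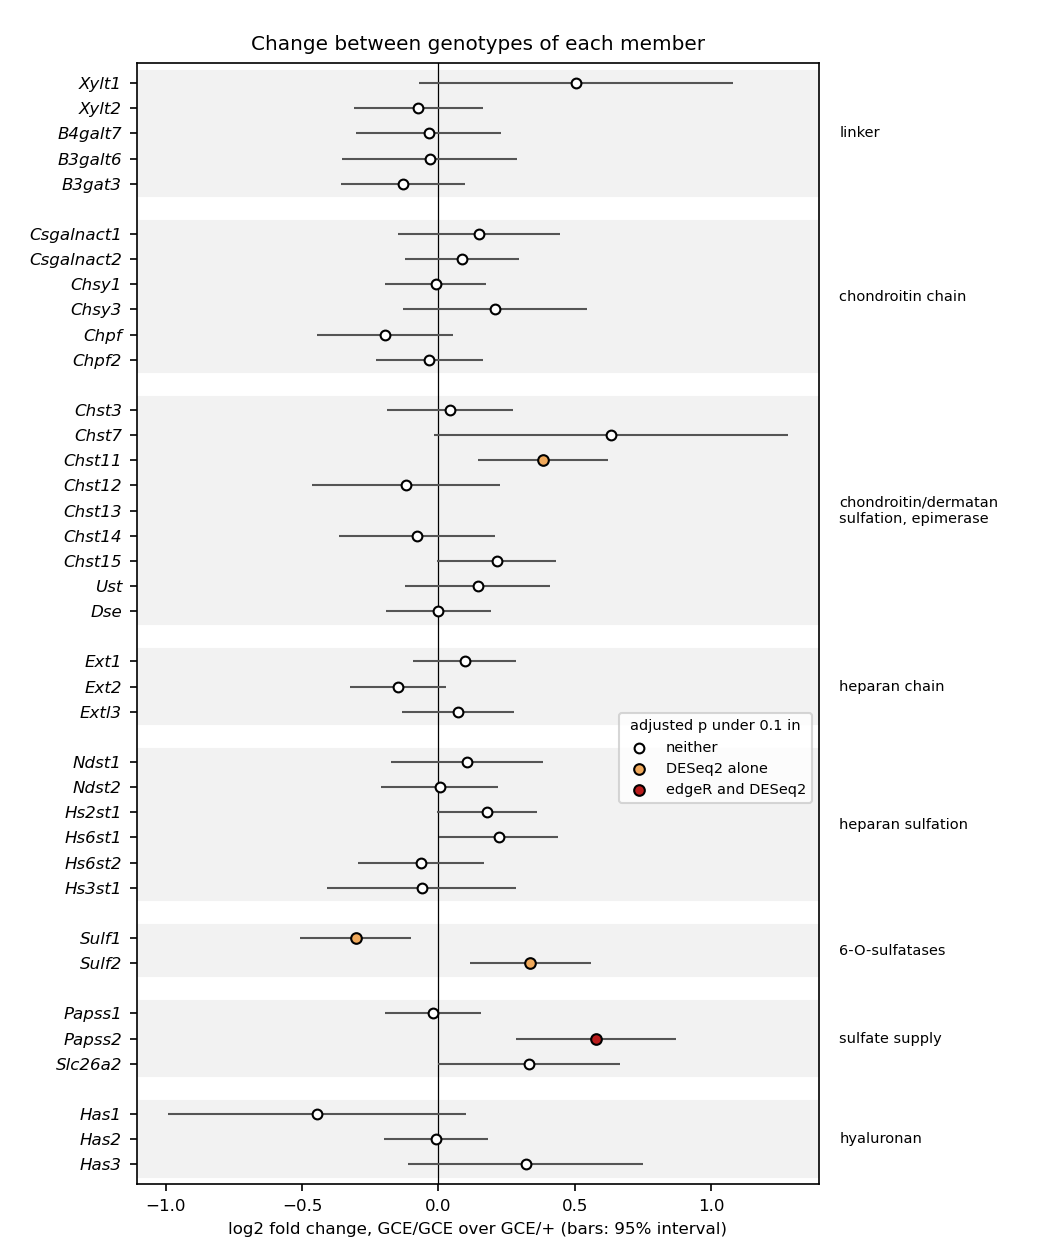
Log2 fold change of each tested member in GCE/GCE over GCE/+ cells with its 95% interval, by branch, and filled by the test in which the adjusted p was under 0.1. The intervals of *Papss2*, *Chst11*, *Sulf2* and *Hs6st1* lie above 0 and that of *Sulf1* below 0, and all others include 0.

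The linker between core protein and chain is laid down by a xylosyltransferase and then by galactosyl- and glucuronyltransferases. *B3gat3*, the glucuronyltransferase gene and the highest linker gene per kilobase (13.1 CPM per kb in GCE/+ cells), was at 34.8 and 32.8 CPM in GCE/+ cells and at 29.2 and 32.6 CPM in GCE/GCE cells. GCE/GCE replicate 1 was the lowest sample and the other 3 were alike, and the log2 fold change was -0.13 ± 0.10 (SE). The galactosyltransferase genes *B4galt7* (-0.04) and *B3galt6* (-0.03) and the xylosyltransferase gene *Xylt2* (-0.07) had log2 fold changes near 0. *Xylt1*, the other xylosyltransferase gene, was at 5.70 and 10.7 CPM in GCE/+ cells and at 11.9 and 11.2 CPM in GCE/GCE cells. GCE/+ replicate 1 was low and the other 3 samples were alike, and the log2 fold change of 0.50 ± 0.25 (SE) did not pass (edgeR adjusted p = 0.576). Without GCE/+ replicate 1 it was 0.11 (edgeR adjusted p = 0.997) and without GCE/+ replicate 2 it was 1.02 (edgeR adjusted p = 0.0238).

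Heparan sulfate is polymerised by *Ext1* and *Ext2*, whose products act as a complex, after *Extl3* has added the first sugar. *Extl3*, the highest of these per kilobase (19.1 CPM per kb in GCE/+ cells), was at 108 and 124 CPM in GCE/+ cells and at 122 and 121 CPM in GCE/GCE cells. Its groups overlapped. *Ext1* had a log2 fold change of 0.10 (interval -0.09 to 0.29) and *Ext2* one of -0.15 (interval -0.33 to 0.03). Neither passed the test.

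The chain is then modified by N-deacetylase/N-sulfotransferases (*Ndst1*, *Ndst2*) and by sulfotransferases for the 2-O (*Hs2st1*), 6-O (*Hs6st1*, *Hs6st2*) and 3-O (*Hs3st1*) positions. *Ndst1*, the highest of them per kilobase in GCE/+ cells (20.0 CPM per kb), was at 145 and 187 CPM there and at 185 and 171 CPM in GCE/GCE cells, and the groups overlapped. *Hs6st1* was at 99.9 and 115 CPM in GCE/+ cells and at 130.4 and 120.1 CPM in GCE/GCE cells. Its groups did not overlap. The log2 fold change of *Hs6st1* was 0.22 ± 0.10 (SE), with an unadjusted p of 0.0485 in edgeR and an adjusted p of 0.471 there and of 0.613 in DESeq2. *Hs2st1* was at 83.9 and 85.1 CPM in GCE/+ cells and at 92.7 and 98.4 CPM in GCE/GCE cells, and its change of 0.18 ± 0.08 (SE) on the log2 scale did not pass (edgeR adjusted p = 0.502). *Ndst2* (0.00), *Hs6st2* (-0.06) and *Hs3st1* (-0.06) had log2 fold changes near 0. *Hs6st2*, on the X chromosome, was lowest in GCE/GCE replicate 1 (98.6 CPM) and between 112 and 119 CPM in the other samples. Over the 9 heparan chain and sulfation genes the sum was 859 and 938 CPM in GCE/+ cells, against 941 and 932 CPM in GCE/GCE cells.

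Sulf1 and Sulf2 are secreted sulfatases that remove 6-O-sulfate from finished heparan sulfate outside the cell and thereby edit the binding of growth factors. They are the members with the highest CPM in every sample, and *Sulf2* was the highest of all members per kilobase (105 CPM per kb in GCE/+ cells and 133 in GCE/GCE cells). *Sulf2*, on chromosome 2 (GRCm38 166073089 to 166155663, minus strand), was at 594 and 639.7 CPM in GCE/+ cells and at 769 and 789.5 CPM in GCE/GCE cells. *Sulf1*, on chromosome 1 (GRCm38 12692277 to 12861192, plus strand), was at 379 and 405 CPM in GCE/+ cells and at 327 and 309 CPM in GCE/GCE cells. The groups did not overlap for either gene, and they were placed in opposite order. For *Sulf2* the log2 fold change was 0.34 ± 0.10 (SE; 95% interval 0.11 to 0.56), which did not pass in edgeR (adjusted p = 0.201) and passed in DESeq2 (adjusted p = 0.0249). For *Sulf1* it was -0.30 ± 0.09 (SE; 95% interval -0.51 to -0.10), with adjusted p-values of 0.205 in edgeR and of 0.0747 in DESeq2. Fold changes rose weakly with transcript length across all genes (Spearman's rho 0.235 over 15472 genes, a description), and *Sulf1*, with 11294 bases of exon, lay against that trend. With offsets for length *Sulf1* was called lower (log2 fold change -0.39, edgeR adjusted p = 0.0613).

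*Sulf2* over *Sulf1* was 1.57 and 1.58 in the GCE/+ samples against 2.35 and 2.56 in the GCE/GCE samples, 1.56-fold higher by the mean of the logarithms. The GCE/+ ratios were nearly the same and both GCE/GCE ratios were higher. The ratio was chosen after the values of both genes were seen and is a description: an exact two-sided permutation test of 2 samples against 2 cannot go below p = 0.333, and it gave that value for each of 6 ratios of related genes. The sum of both genes was 973 and 1045 CPM in GCE/+ cells, against 1096 and 1098 CPM in GCE/GCE cells, 0.12 higher on the log2 scale.

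**Figure D3:**
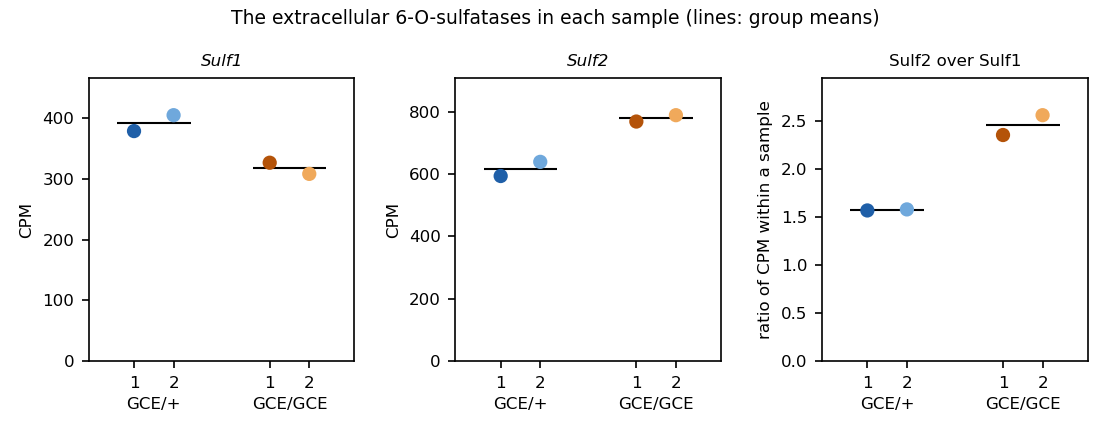
CPM of *Sulf1* and *Sulf2* and their ratio within each sample, one point per sample, with lines at the group means. *Sulf1* is lower and *Sulf2* higher in both GCE/GCE samples, and the ratio is 1.57 and 1.58 in GCE/+ cells against 2.35 and 2.56 in GCE/GCE cells.

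Hyaluronan is made by 3 synthases, of which *Has2* carried nearly all of the transcripts. *Has2*, the main synthase gene of limb mesenchyme, was at 185 and 169 CPM in GCE/+ cells and at 177 and 175 CPM in GCE/GCE cells. The GCE/GCE samples lay between the GCE/+ samples, and the interval of the log2 fold change ran from -0.20 to 0.18. *Has1* was low, at 5.16 and 3.98 CPM in GCE/+ cells, against 4.07 and 2.66 CPM in GCE/GCE cells, and its log2 fold change of -0.45 ± 0.24 (SE) did not pass (edgeR adjusted p = 0.623). Without GCE/GCE replicate 1 it was -0.79, without GCE/GCE replicate 2 it was -0.17, and without GCE/+ replicate 1 it was -0.25. *Has3* was at 2.35 and 2.64 CPM in GCE/+ cells and at 2.997 and 3.22 CPM in GCE/GCE cells, with a log2 fold change of 0.32 ± 0.19 (SE; edgeR adjusted p = 0.673). Per kilobase *Has2* was at 41.8 CPM per kb in GCE/+ cells, against 1.01 for *Has1* and 0.391 for *Has3*.

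The cartilage markers are given beside the members because some of these genes serve cartilage. All 14 placed the GCE/GCE samples above the GCE/+ samples, and 6 passed the edgeR test, among them *Col11a1* (log2 fold change 0.78, adjusted p = 0.0324) and *Col9a2* (0.59, adjusted p = 0.0649), which encode cartilage collagen chains. *Col2a1*, the main cartilage collagen gene, was at 359 and 571 CPM in GCE/+ cells and at 790 and 879 CPM in GCE/GCE cells (log2 fold change 0.84, edgeR adjusted p = 0.106). GCE/+ replicate 2 was above GCE/+ replicate 1 by 0.58 on the log2 scale in the sum of the markers. GCE/+ replicate 2 was also above GCE/+ replicate 1 in 19 of the 37 members, *Papss2*, *Chst11*, *Slc26a2* and *Xylt1* among them. Between the GCE/GCE replicates *Papss2* and *Chst11* had the order of the marker sum, and *Slc26a2* and *Xylt1* had the opposite order. *Sulf2*, *Chst15*, *Hs2st1* and *Has3*, like *Papss2* and *Chst11*, had the order of the marker sum across all samples. *Sulf1* was higher in GCE/+ replicate 2 and lower in GCE/GCE cells, an order that differs from that of the markers. The part of cartilage cells or of cartilage gene expression in the values of the members was not tested.

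**Figure D4:**
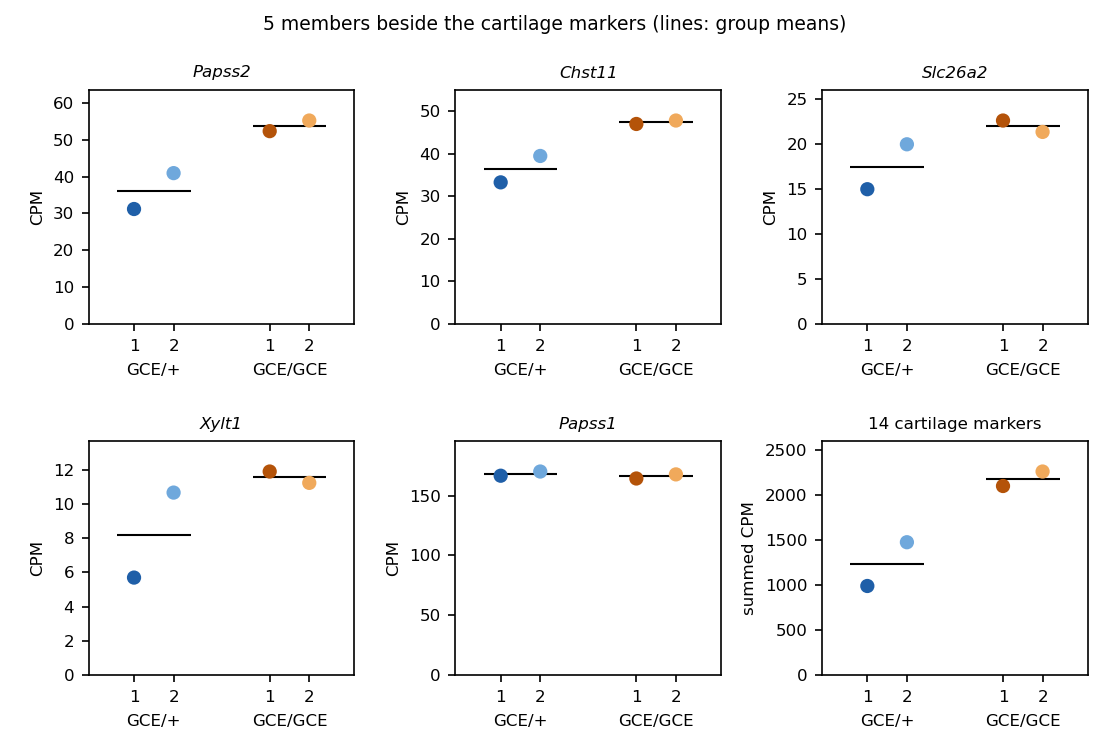
CPM of *Papss2*, *Chst11*, *Slc26a2*, *Xylt1* and *Papss1* and the summed CPM of the 14 cartilage markers, one point per sample, with lines at the group means. GCE/+ replicate 1 is the lowest sample in the first 4 panels and in the marker sum (988), while *Papss1* lies between 164 and 170.2 CPM in all samples.

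Among the other marker lists, all 12 macrophage markers were lower in GCE/GCE cells and 9 passed the edgeR test. *Mrc1* was the highest of them, at 98.1 and 103 CPM in GCE/+ cells and at 63.4 and 50.2 CPM in GCE/GCE cells. Of 8 tendon markers 4 passed as higher, among them *Tnc* (log2 fold change 0.44, adjusted p = 0.0680 in edgeR). *Col14a1* was lower, with groups that did not overlap (log2 fold change -0.37, unadjusted p = 0.0376 in edgeR). The groups of *Egr1* and *Thbs4* overlapped. The tendon sum overlapped too, at 2595.5 and 2169 CPM in GCE/+ cells, against 2969 and 2262 CPM in GCE/GCE cells. Its largest term in every sample was *Egr1*, with 1705.6 and 1320.6 CPM (GCE/+) against 1839.5 and 1269 CPM (GCE/GCE). The overlap of the sum therefore need not hold for the other tendon markers. By gene, 5 of the 8 were higher without overlap, 1 was lower without overlap and 2 overlapped. Of 9 endothelial markers none passed (edgeR; 5 were lower at an unadjusted p under 0.05, and 1 was lower in DESeq2), and their sum was 135 and 108 CPM in GCE/+ cells, against 107 and 89.7 CPM in GCE/GCE cells. Of the muscle markers 1 of 10 tested passed, as higher. The sums of the erythroid, epidermal and Schwann cell markers overlapped between the genotypes. The erythroid sum was 511 CPM in GCE/+ replicate 1 and 174 CPM in GCE/+ replicate 2, against 342 and 312 CPM in GCE/GCE cells. The epidermal and Schwann cell sums were 15.8 to 23.1 CPM. The part of macrophages in the members' values was not tested.

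The rest of the pathway was read from 69 further genes, of which 68 were tested. In edgeR 2 rose and none fell, where 0.895% and 0.927% of all genes did. By DESeq2 4 were higher (*Sdc2*, *Hs3st3a1*, *Hs3st3b1* and *Extl1*) and 3 lower (*Dcn*, *Tgfbr3* and *Sdc4*), where 1.71% and 1.64% of all genes were. At an unadjusted p under 0.05 in edgeR there were 9 higher and 8 lower genes, where 5.62% and 4.86% of all genes were. *Sdc2* encodes syndecan-2, a heparan sulfate proteoglycan of the cell surface. It was at 104 and 94.5 CPM in GCE/+ cells and at 144 and 149 CPM in GCE/GCE cells. The groups did not overlap, and the log2 fold change was 0.56 ± 0.08 (SE; edgeR adjusted p = 0.0324). *Hs3st3a1*, a heparan 3-O-sulfotransferase gene, was at 13.6 and 13.8 CPM in GCE/+ cells and at 18.9 and 20.8 CPM in GCE/GCE cells (log2 fold change 0.54 ± 0.11, SE; edgeR adjusted p = 0.0852). Its close paralog *Hs3st3b1* had a log2 fold change of 0.41 ± 0.10 (SE; edgeR adjusted p = 0.127), and reads from the sequence that the pair shares could have been assigned to either gene or to none.

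Of the 22 core protein and receptor genes, *Sdc2* alone passed in edgeR. *Sdc4*, another syndecan gene, had a log2 fold change of -0.44 ± 0.10 (SE; edgeR adjusted p = 0.103), opposite in sign to that of *Sdc2*. Of 19 genes for glycosaminoglycan breakdown none passed either test. At an unadjusted p under 0.05 in edgeR 2 were higher and 5 lower, where 5.62% and 4.86% of all genes were. The difference in these shares was not tested. The macrophage markers were lower in the same samples, and their part in these values was not tested.

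**Figure D5:**
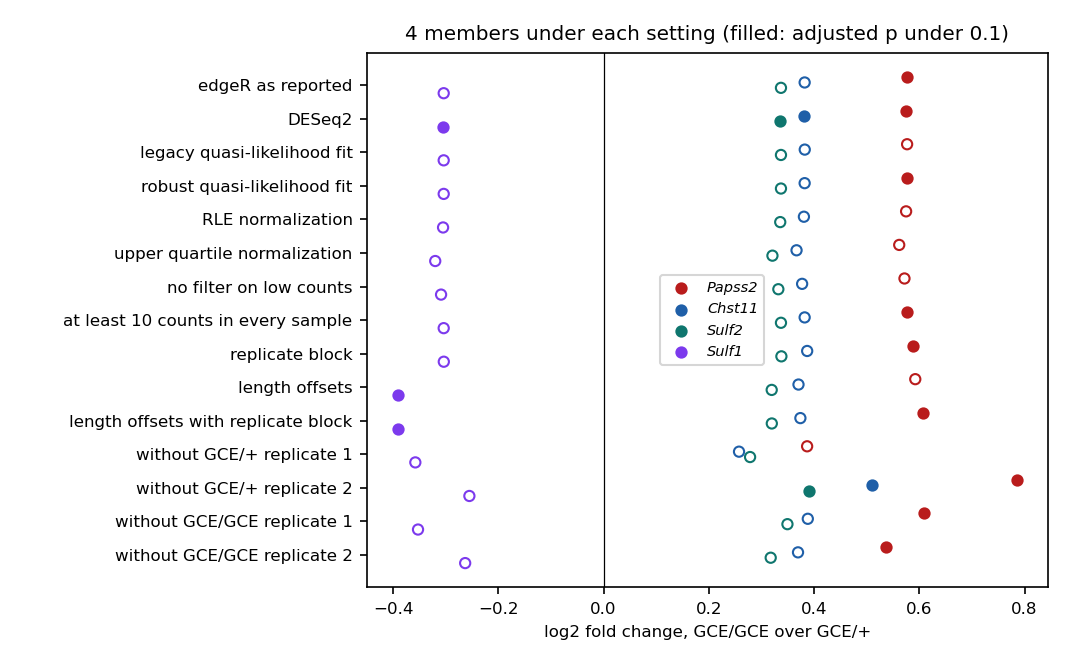
Log2 fold change of *Papss2*, *Chst11*, *Sulf2* and *Sulf1* under each of 15 settings of the analysis, filled where the adjusted p was under 0.1. The sign of each gene is the same in every setting. *Papss2* is filled in 9 of the 15, among them the fits without a GCE/GCE replicate, whose p-values follow another distribution.

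Under the 15 settings *Papss2* kept its sign and was called in 9. Across the settings that use all samples its log2 fold change was 0.56 to 0.61, with adjusted p-values of 0.00397 to 0.195, and leaving out each sample in turn gave 0.39 to 0.79. *Chst11* and *Sulf2* were called in DESeq2 and in the edgeR fit without GCE/+ replicate 2. *Sulf1* was called in DESeq2 and in both fits with length offsets. The direction of these 4 genes did not turn in any setting. Their groups did not overlap, so leaving out 1 sample could hardly turn it, and the other settings reuse the same samples.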

How the data were processed

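RNA of GFP+ cells, sorted as negative for propidium iodide from E13.5 limbs of 2 GCE/+ and 2 GCE/GCE embryos, was sequenced as unstranded 50-bp paired reads. The authors used TopHat2, guided by UCSC genes, to map reads to mm9, and deposited raw counts of fragments per gene from HTSeq, in intersection-strict mode, which drops fragments that extend beyond a gene's exons or fit several genes. Groups and replicate numbers came from the titles. The numbers did not pair samples (correlation of deviations -0.00403 over 11180 genes).

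Counts were filtered with filterByExpr, scaled by TMM and compared in R 4.3.3 by the quasi-likelihood test of edgeR 4.0.16 (legacy = FALSE, two-sided), with Benjamini-Hochberg adjustment over 15645 genes and the study's threshold of 0.1. The residual degrees of freedom of the reported fit were 2, to which its tests and intervals added 6.38 prior degrees of freedom, estimated across all genes. DESeq2 1.42.0 was an alternative, with further normalizations, filters, length offsets, a replicate block and omission of each sample. CPM used TMM library sizes. Levels per kilobase used the union of exons in GENCODE M21 (GRCm38), whose coordinates are given although counts were made on mm9; 98.1% of symbols matched. The script was tested on simulated data.

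Members and lists were chosen with earlier results of these data known. All members were named; values in each sample were given for members at an adjusted p under 0.1 or an unadjusted p under 0.05, for the highest per kilobase of each branch, and for some others chosen after their values were seen. Marker genes were named by level.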

Additional observations from a re-analysis of the deposited data

How the results depend on the processing

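The number of genes called was 285, and 503 by DESeq2, 127 with no filter on low counts and 130 at an adjusted p under 0.05; leaving out each sample gave 199 to 961 (without GCE/+ replicate 1 and without GCE/+ replicate 2), and 748 without GCE/GCE replicate 1. The share of higher calls moved from 49.1% to 67.2% without GCE/+ replicate 2 and to 38.9% without GCE/GCE replicate 1. Of members, 1 was called (1 higher, 0 lower). It was 4 (3 higher, 1 lower) by DESeq2, 1 (0 higher, 1 lower) with length offsets, 2 (1 higher, 1 lower) with length offsets and the replicate block, and 0 in the legacy fit, with RLE or upper quartile normalization, with no filter and at an adjusted p under 0.05. Leaving out each sample gave 0 to 6 members, 0 to 5 higher and 0 to 1 lower. The 6 without GCE/+ replicate 2 were Chpf, Chst11, Papss2, Slc26a2, Sulf2 and Xylt1. An arm with 1 sample is assumed to vary like the other. Without a GCE/GCE replicate the edgeR p-values equal normal ones for the same change and SE, unlike those without a GCE/+ replicate. The counts of calls of these fits therefore come from unlike tests and cannot be set beside each other. The part of this difference, and of the samples left out, in these moves was not tested.

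The replicate block alone gave 290 genes and the same member, Papss2. The sign was kept under every setting by 19 of 36 members, Papss2, Chst11, Sulf1, Sulf2 and Hs6st1 among them. The largest log2 fold change of the other 17 was 0.21. For the named genes, whose groups did not overlap, leaving out 1 sample could hardly turn the sign. With all samples it turned for Ndst2 (-0.013 with upper quartile normalization, -0.0012 without a filter), for Papss1 (0.0090 with length offsets, 0.0098 with the block added), for Has2 (0.00080 and 0.0018), and for B3galt6 (0.0010) and Chsy1 (0.00034) with length offsets and block. Leaving out each sample gave log2 fold changes of -0.18 to 0.041 for Xylt2, -0.096 to 0.022 for B4galt7, -0.16 to 0.10 for B3galt6, -0.025 to 0.34 for Csgalnact1, -0.062 to 0.035 for Chsy1, -0.017 to 0.47 for Chsy3, -0.26 to 0.028 for Chst12, -0.26 to 0.12 for Chst14, -0.0091 to 0.28 for Ust, -0.058 to 0.051 for Dse, -0.029 to 0.17 for Extl3, -0.074 to 0.30 for Ndst1, -0.041 to 0.043 for Ndst2, -0.20 to 0.057 for Hs6st2, -0.22 to 0.11 for Hs3st1 and -0.071 to 0.050 for Has2. With 2 embryos a genotype, the 95% intervals of 10 of the 36 members reach beyond 0.5 on the log2 scale: Papss2, Xylt1, Chsy3, Chst7, Chst11, Sulf1, Sulf2, Slc26a2, Has1 and Has3. Leaving out each sample moved Xylt1 from 0.11 to 1.02, Slc26a2 from 0.13 to 0.55, Has1 from -0.79 to -0.17, Chpf from -0.34 to -0.04, B3gat3 from -0.21 to -0.06 and Hs6st1 from 0.12 to 0.33.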
